A study of Saccharomyces cerevisiae W303 with 9 samples.

Results

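Ty1 is the most abundant family of retrotransposons in budding yeast. The report describes 10 annotated reading frames for its Gag-Pol polyprotein, among 7127 features in a table of read counts. The 10 are YMR045C, YJR027W, YER160C, YMR050C, YJR029W, YNL284C-B, YBR012W-B, YER138C, YML045W and YML039W. They were taken by name from a list drawn up with earlier results of these data in view. YJR029W was selected on its low level in a strain without AIM29, and which values picked the other 9 is not recorded. The contrast of that strain with the wild type is therefore given for all 10 as a description, with no test. The table holds 20 other Ty1 Gag-Pol frames, and 89 frames of Ty elements in all.

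A Ty1 element is flanked by long terminal repeats. RNA polymerase II transcribes it into an RNA that serves both as messenger and as the template for reverse transcription. Gag forms the particle in which reverse transcription takes place. Pol supplies protease, integrase, reverse transcriptase and RNase H, and is made only as a fusion to Gag, when ribosomes shift frame at a short site near the end of the Gag frame. Integrase binds RNA polymerase III, and new copies land mostly upstream of tRNA genes. In haploid cells Ty1 RNA is abundant, and in diploids that carry both mating type alleles it is repressed.

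All 10 frames carry the frameshift site, the heptamer CTTAGGC, which is shown because it is the feature that makes these frames Gag-Pol. It starts at base 1303 of each frame, within the last 100 bases of the Gag frame. The 10 fall into a pair of versions of the surrounding 30 bases, with 5 frames each, and the capitals mark the heptamer. The first is that of YMR045C, YJR027W, YER138C, YML039W and YNL284C-B, and the second that of YJR029W, YER160C, YML045W, YMR050C and YBR012W-B. They were read from the RefSeq genome of build R64, at chrXIII:361308-361337 on the minus strand for YMR045C and at chrX:479634-479663 on the plus strand for YJR029W.
YMR045C: cacgaccttcacCTTAGGCcaggaacttac
YJR029W: cacgaccttcatCTTAGGCcagaaacttac
Searched for on both strands, the same 7 letters occurred in the last 100 bases of 27 of 5932 other coding genes, or 0.455%. A match of letters is a description and does not show that a site is used.

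The strains are Saccharomyces cerevisiae of the W303 laboratory background, and poly(A) RNA was sequenced. Besides the wild type there is an aim29 deletion, here called the mutant, and an aim29 deletion that also carries pmTDH3-ZPR1, here called the ZPR1 strain. The labels do not say what the letters before TDH3 stand for, whether the construct sits on a plasmid or in the genome, or how AIM29 was deleted. TDH3 encodes an abundant enzyme of glycolysis, and Zpr1 helps to fold the translation elongation factor eEF1A. Each group has 3 libraries, from 3 isolates of a strain in YPD, a rich medium with glucose, taken at an OD600 of 0.4 to 0.6.

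Totals were 14380639 to 20140071 counts per library, and 3 counts correspond to 0.143 to 0.213 CPM, counts scaled to the size of the library. AIM29 was at 78.4 ± 3.38 CPM in the wild type, 2.76 ± 1.72 in the mutant and 6.56 ± 1.22 in the ZPR1 strain (SD, n = 3 throughout). ZPR1 was at 329 ± 7.59, 422 ± 22.6 and 5380 ± 454 CPM. The deleted gene was thus low in both strains labelled as lacking it, and ZPR1 was high in the strain labelled with the construct. Markers of the mating type were those of haploid cells. The 7 a-specific genes summed to 1608 to 1733 CPM in the wild type, 1287 to 1358 in the mutant and 1217 to 1576 in the ZPR1 strain. The 4 alpha-specific genes summed to 29.6 to 40.9 CPM in the 9 libraries, and the 11 haploid-specific genes to 1202 to 1396. None of these marker genes was at 0 in all libraries of a group. The 10 Ty1 frames took between 0.0217% and 0.0396% of the counts of a library.

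Copies of Ty1 are so alike that most reads from one could come from another. Outside the Gag frame the 10 differed from each other by 1 base, between YER138C and YML039W, to 232 bases, between YJR027W and YNL284C-B. The closest relative among the 28 full-length frames was at 1 to 57 differing bases. YGR027W-B was closest to YJR029W, with 20 differing bases of 3946, and YPR137C-B was closest to YJR027W, with 35. A stretch of 50 bases, bases 4200 to 4249 of the frame in the Pol part, shows what tells these rows apart, and the capitals mark bases that differ from YMR045C. The stretches lie at chrXIII:358379-358428 on the minus strand for YMR045C, and on the plus strand at chrX:476959-477008 for YJR027W and chrX:482543-482592 for YJR029W, in build R64.
YMR045C: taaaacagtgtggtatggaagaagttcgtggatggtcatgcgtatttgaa
YJR027W: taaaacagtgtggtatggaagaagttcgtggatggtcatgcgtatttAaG
YJR029W: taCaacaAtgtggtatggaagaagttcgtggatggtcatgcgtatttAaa
The stretch of YMR045C occurred 1 time in the genome, that of YJR027W 23 times and that of YJR029W 6 times. A read of that length could be placed in YMR045C alone, but not in either of the others.

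**Figure D1:**
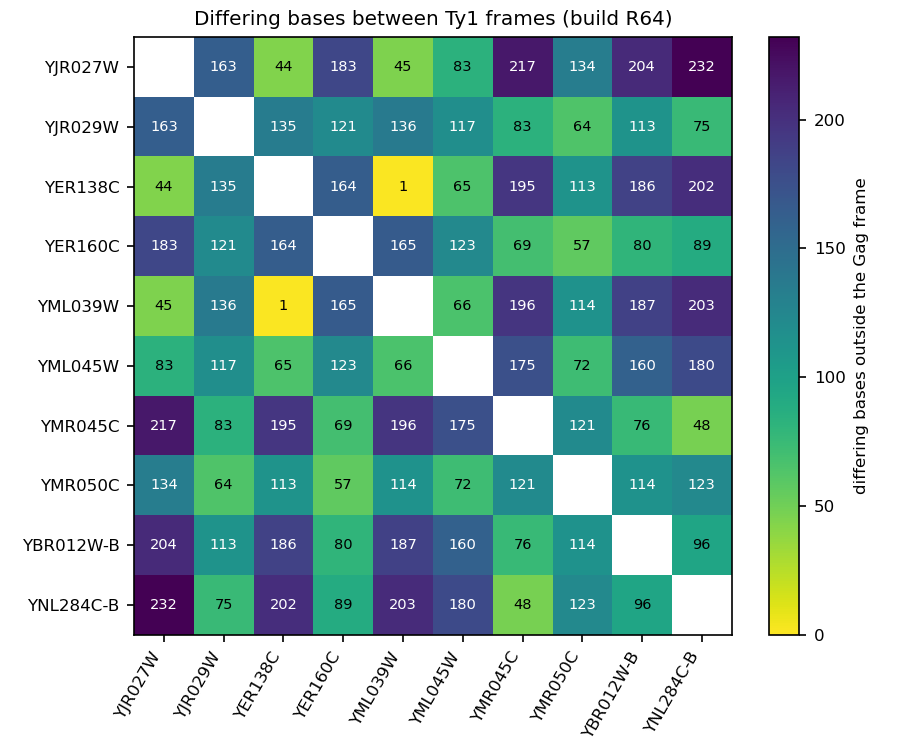
Differing bases outside the Gag frame between each pair of the 10 Ty1 Gag-Pol frames, as numbers and as colour, from the reference sequence of build R64. The pair YER138C and YML039W differs by 1 base, while YJR027W and YNL284C-B differ by 232.

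Outside the Gag frame, YBR012W-B had the largest share of 50-base windows that occur once in the genome, at 7.44%. YNL284C-B followed with 6.29%, YMR045C with 4.62%, YJR027W with 2.05% and YML039W with 1.28%. In YJR029W, YER138C, YER160C, YML045W and YMR050C the share was 0%. With windows of 150 bases it was 17.5% in YNL284C-B, 16.8% in YBR012W-B, 12.4% in YJR027W and 12.0% in YMR045C, and still 0% in YJR029W, YER138C and YML045W. How the authors' counting treated reads that map to several places is unknown here. A row of the table therefore stands for an annotated copy and for whatever part of its relatives' reads was assigned to it. The reference is the S288C genome, and the positions of Ty1 copies differ between laboratory strains, so a row need not match an element of W303.

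All 41 Gag frames that lie inside a Gag-Pol frame had 0 counts in all 9 libraries, those of the 10 described here among them. The 3 Gag frames of the table that lie in no Gag-Pol frame all had counts. Levels per kilobase were computed over the part outside the Gag frame, which is 3946 of 5269 bases, or 3949 of 5272 in YBR012W-B. This assumes that reads in the shared part were counted for neither frame. The counting rule is not stated, so the assumption could not be checked.

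The 10 frames differed in level far more than the groups did. Per kilobase, YMR045C stood highest in the wild type, at 44.9 ± 1.69 CPM, and YML039W lowest, at 0.226 ± 0.0328. YJR027W was second, at 28.5 ± 1.10 CPM per kilobase. A group of 4 frames followed at similar levels. They were YER160C at 6.28 ± 0.144 CPM per kilobase, YMR050C at 5.28 ± 0.164, YJR029W at 4.53 ± 0.837 and YNL284C-B at 4.22 ± 0.0732. Of these, the libraries of YJR029W overlapped those of its neighbours on both sides, so that their order was not resolved. YBR012W-B was at 0.698 ± 0.0739 CPM per kilobase, YER138C at 0.419 ± 0.0544 and YML045W at 0.335 ± 0.104, and the libraries of the last pair overlapped. YMR045C and YJR027W together held most of the counts. YMR045C made up 47.0% of the summed counts of the 10 in the wild type, 54.9% in the mutant and 46.9% in the ZPR1 strain, and YJR027W 29.9%, 24.4% and 32.2%.

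Over the 30 Ty1 Gag-Pol frames, the level and the share of unique sequence varied together only loosely. Spearman's rho between the mean CPM and the share of 150-base windows found once in the genome was 0.466. This is a correlation across frames, which share reads and libraries and are not independent, and it carries no test. YBR012W-B and YNL284C-B, with the largest shares of unique windows of the 10, were at 2.76 and 16.7 CPM in the wild type. YMR045C and YJR027W, with somewhat smaller shares, were at 177 and 113 CPM.

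**Figure D2:**
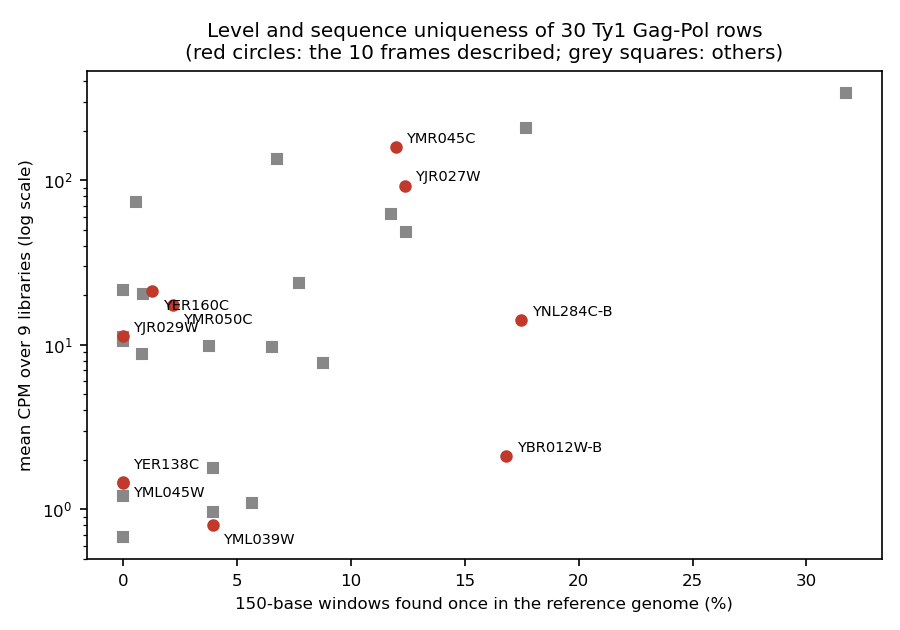
Mean CPM over 9 libraries (log scale) against the percent of 150-base windows outside the Gag frame that occur once in the reference genome, for 30 Ty1 Gag-Pol frames. Red circles are the 10 frames described and grey squares the other 20; Spearman's rho is 0.466.

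The first comparison sets the mutant against the wild type and asks what the loss of AIM29 changes. All 10 frames had a lower fitted level in the mutant, with a median log2 fold change of −0.36, from −1.21 in YJR029W to −0.07 in YML045W. Over all 5970 features tested the median was 0.0035, and 49.2% were below 0. CPM is a share of the RNA pool of a culture, so fewer cells with Ty1 RNA and less Ty1 RNA per cell cannot be told apart. YJR029W was lowest, followed by YBR012W-B at −0.65 and YJR027W at −0.60. The wild-type and mutant libraries did not overlap in 6 of the 10, against 19.2% of all features that were lower and 21.1% that were higher without overlap. Among all features, 6.4% were called in either direction, 4.24% higher and 2.16% lower. Of the 10 frames, YJR029W and YJR027W were among those called lower and 0 were called higher; 6 of the 10 were lower and 0 higher at an unadjusted p under 0.05, and DESeq2 called the same numbers as edgeR. Since the contrast was used in choosing the frames, nothing is read from these counts.

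In wild-type cells YJR029W stood at 20.6, 14.2 and 18.8 CPM. The mutant libraries had 8.32, 8.16 and 6.71 CPM, and the ZPR1 libraries 8.42, 7.67 and 8.29. Every library without AIM29 was below every wild-type library, and the mutant and ZPR1 libraries overlapped. The log2 fold change of the mutant against the wild type was −1.21 ± 0.15 (SE), which is 2.31-fold lower. The wild-type libraries of YJR029W were themselves spread, with the second lowest by a wide margin, and the log2 fold change was −1.09 without the first and −1.35 without the second.

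YJR027W had 116, 113 and 108 CPM in the wild type, 70.8, 73.2 and 78.3 in the mutant, and 98.1, 76.1 and 103 in the ZPR1 strain. The mutant libraries were all below the wild-type libraries, with a log2 fold change of −0.60 ± 0.10. The ZPR1 libraries lay below the wild type as well, and 1 of them fell within the range of the mutant libraries. YJR027W and YJR029W belong to the elements YJRWTy1-1 and YJRWTy1-2, which share a terminal repeat of 334 bases at chrX:478051-478384, and their frames are 315 bases apart. They differ in 163 bases, more than YJR029W differs from any other of the 10.

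YBR012W-B, on chromosome II, had 3.09, 2.59 and 2.59 CPM in the wild type, 1.85, 1.76 and 1.68 in the mutant, and 2.43, 1.38 and 1.61 in the ZPR1 strain. Its mutant libraries were all below the wild type, at a log2 fold change of −0.65 ± 0.25, and it rested on 24 to 54 counts per library. It is the frame of the 10 with the largest share of unique 50-base windows.

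YER160C, on chromosome V, had 25.4, 24.2 and 24.7 CPM in the wild type and 18.3, 18.8 and 20.1 in the mutant, with a log2 fold change of −0.38 ± 0.15. YNL284C-B, on chromosome XIV, had 16.6, 17.0 and 16.4 CPM in the wild type and 12.5, 13.6 and 13.3 in the mutant, at −0.34 ± 0.14. YMR050C, on chromosome XIII, had 20.6, 20.3 and 21.5 CPM in the wild type and 17.2, 18.6 and 17.8 in the mutant, at −0.22 ± 0.09. In these 3 frames the replicates lay close together and the groups did not overlap, so small differences separated them.

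The other 4 frames overlapped between the wild type and the mutant. YMR045C, the most counted of the 10, had 182, 170 and 179 CPM in the wild type and 153, 182 and 164 in the mutant, at a log2 fold change of −0.09 ± 0.24. The remaining 3 had few counts, with 14 to 39 per library in YER138C, 11 to 46 in YML045W and 7 to 18 in YML039W. Their log2 fold changes were −0.44 ± 0.31, −0.07 ± 0.46 and −0.20 ± 0.35, so that a difference was not detectable at this depth. The sign for YML039W turned positive, at 0.04, without the second mutant library, and that for YML045W, at 0.21, without the first wild-type library. All 10 frames passed the filter on low counts. For YML039W only the wild type, where its mean was highest, had all its libraries over the limit.

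**Figure D3:**
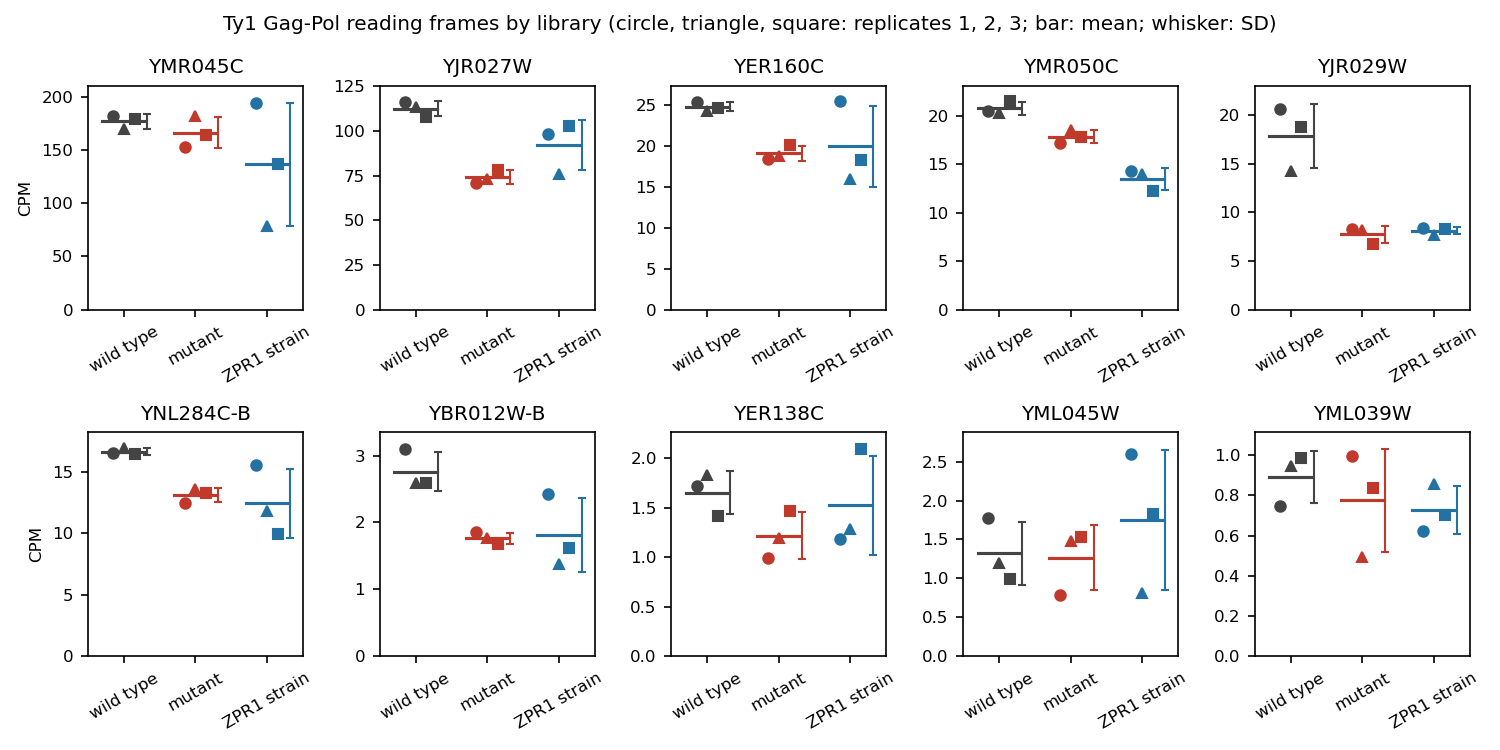
CPM of each of the 10 Ty1 Gag-Pol frames in the 9 libraries, ordered by level in the wild type, with replicate markers, the mean (bar) and the SD (whisker) of 3 libraries per group; each panel has its own scale from 0. In YJR029W all 6 libraries without AIM29 lie below the wild type, while in YMR045C the ZPR1 libraries run from 78.7 to 194 CPM.

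The second comparison sets the ZPR1 strain against the mutant and asks what pmTDH3-ZPR1 changes where AIM29 is missing. The 10 frames did not move in a common direction. Their median log2 fold change was 0.04, beside 0.0031 over all features, and 4 of the 10 were below 0. The test is edgeR's quasi-likelihood test over 5970 features with Benjamini-Hochberg adjustment. It shares its mutant libraries with the contrast that was used in choosing the frames and is not independent of it. Whether values of this comparison also picked frames other than YJR029W is not recorded. The calls and p-values of the 10 are therefore a description here too, and nothing is read from them. Of all features 5.38% were called, 1.66% higher and 3.72% lower. Of the 10 frames 1 was called lower and 0 were called higher; at an unadjusted p under 0.05, 1 was higher and 1 lower, and DESeq2 also called 1 lower and 0 higher. The mutant and ZPR1 libraries did not overlap in 1 frame, which was lower in the ZPR1 strain, against 13.5% of all features lower and 12.2% higher.

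The frame called was YMR050C. It had 14.4, 14.0 and 12.2 CPM in the ZPR1 libraries, all below the mutant libraries at 17.2 to 18.6 and the wild-type libraries at 20.3 to 21.5. The log2 fold change against the mutant was −0.40 ± 0.09, with an adjusted p of 0.0281. The call was lost without the second or the third wild-type library or any mutant library, with adjusted p from 0.0504 to 0.125, and with no composition factors (0.0531) or with these 2 groups alone (0.101). The groups of YMR050C thus stood in the order wild type, mutant and ZPR1 strain, without overlap between any pair of them.

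YJR027W was higher in the ZPR1 strain by a log2 fold change of 0.32 ± 0.10 and missed the threshold, with an adjusted p of 0.0985. Its second ZPR1 library, at 76.1 CPM, lay apart from the others, at 98.1 and 103. Without that library the log2 fold change was 0.44 and the adjusted p 0.00243, and with no composition factors the adjusted p was 0.0477. Without the third ZPR1 library the log2 fold change was 0.23. YJR029W differed by 0.07 ± 0.16, with an adjusted p of 0.830, so the ZPR1 strain was close to the mutant in the frame that was lowest in the first comparison. The neighbours YJR027W and YJR029W had different values here, but the difference between them was not tested.

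For the other 7 frames the log2 fold changes ran from −0.29 ± 0.24 in YMR045C to 0.44 ± 0.44 in YML045W, with adjusted p from 0.512 to 0.965. YMR045C had 194, 78.7 and 137 CPM in the ZPR1 libraries, a coefficient of variation of 42.3%, beside 3.76% in the wild type and 8.80% in the mutant. YER160C had 25.5, 16.0 and 18.3 CPM, YNL284C-B 15.5, 11.8 and 9.96, and YML045W 2.60, 0.810 and 1.83. In the first library of the ZPR1 strain these frames were highest, and that held in 7 of the 10 frames; the second library was lowest in 6 of the 10. The second library also had the largest share of counts in tRNA features, 0.0105%, beside 0.00559% and 0.00371% in the first and the third. Its part in these values was not tested.

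The third comparison sets the ZPR1 strain against the wild type, and shares libraries with both others. Its wild-type libraries are those of the contrast that was used in choosing the frames. The counts and p-values of the 10 are thus not independent of that choice, and nothing is read from them. Of the 10 frames, 9 had a log2 fold change below 0, with a median of −0.35, beside 0.0076 and 47.9% below 0 over all features. The ZPR1 and wild-type libraries did not overlap in 5 of the 10, which were YJR027W, YJR029W, YMR050C, YBR012W-B and YNL284C-B, against 8.58% of all features lower and 7.81% higher without overlap. By edgeR 2 of the 10 were called lower and 0 higher, and of all features 0.184% were called, with 0.117% higher and 0.067% lower; 5 of the 10 were lower and 0 higher at an unadjusted p under 0.05, and DESeq2 called 2 lower and 0 higher.

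The 2 frames called were YJR029W and YMR050C. YJR029W was lower by a log2 fold change of −1.14 ± 0.15, or 2.20-fold, with an adjusted p of 0.0110. It was selected on its low level in a strain without AIM29, so this p is no test of that level. The call was lost without the first wild-type library (adjusted p = 0.0764) or the third (0.109), and with these 2 groups alone (0.0741), while the log2 fold change stayed between −1.28 and −1.02 whichever library was left out. YMR050C was lower by −0.62 ± 0.09, with an adjusted p of 0.0217, which rose to between 0.0568 and 0.182 without any 1 of the wild-type or mutant libraries and to 0.171 with these 2 groups alone. Both were lower in 3 of 3 ZPR1 libraries than in any wild-type library.

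YBR012W-B was lower by −0.62 ± 0.24 (adjusted p = 0.347), YNL284C-B by −0.42 ± 0.14 (0.288) and YJR027W by −0.29 ± 0.10 (0.295). YER160C, at −0.32 ± 0.14 (0.393), was in its first ZPR1 library as high as in the wild type. Without that library YER160C was at −0.53 and YNL284C-B at −0.61, each with an adjusted p of 0.0369. It was the highest ZPR1 library of both frames, so its removal lowers them, and nothing is read from these p-values. The smallest differences were −0.18 in YER160C without the second ZPR1 library and −0.29 in YNL284C-B without the third. YML045W was the only frame of the 10 above 0, at 0.37 ± 0.43, and was at −0.03 without the first ZPR1 library.

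**Figure D4:**
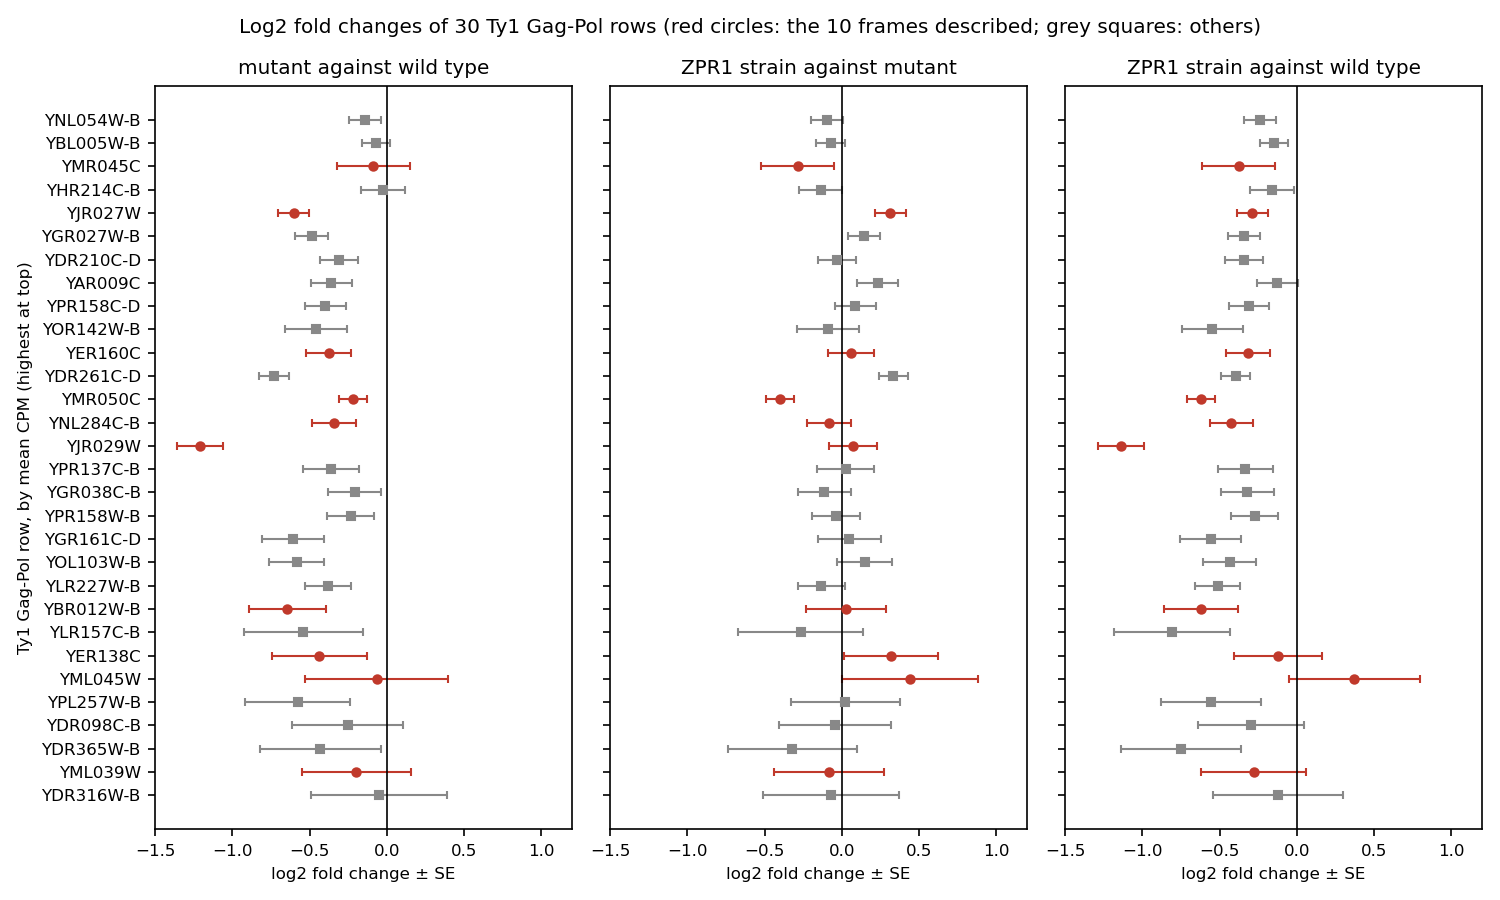
Log2 fold change with its SE of 30 Ty1 Gag-Pol frames in the 3 comparisons, ordered by mean CPM from the top; red circles are the 10 frames described and grey squares the other 20. In the mutant against the wild type all 30 points are below 0, and YJR029W is the lowest at −1.21; in the ZPR1 strain against the mutant the points lie on both sides of 0.

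Summing the rows removes the question of which of the 10 copies a read was assigned to. The sum of the 10 was 389, 365 and 375 CPM in the wild type, 285, 320 and 306 in the mutant, and 363, 209 and 295 in the ZPR1 strain. Both strains without AIM29 were below the wild type in every library, and the ZPR1 libraries spanned the mutant libraries. The mean was 376 ± 12.0 CPM in the wild type, 303 ± 17.3 (80.6% of it) in the mutant and 289 ± 77.4 (76.7%) in the ZPR1 strain. The log2 fold changes were −0.31 ± 0.15 for the mutant against the wild type, −0.38 ± 0.15 for the ZPR1 strain against the wild type and −0.07 ± 0.15 for the ZPR1 strain against the mutant. The last turned to 0.13 without the second ZPR1 library and was −0.27 without the first. The ZPR1 strain’s difference from the wild type was −0.19 without the second ZPR1 library and −0.58 without the first. The SEs share 1 estimate of spread. The wide spread of the ZPR1 libraries thus also enters the SE of the mutant against the wild type.

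The sum depended on YMR045C, which has the most counts and overlapped between the wild type and the mutant. The sum of the 9 other frames was 199 ± 6.52, 137 ± 4.95 and 152 ± 20.0 CPM. It gave −0.54 ± 0.09 for the mutant against the wild type, 0.15 ± 0.09 for the ZPR1 strain against the mutant and −0.39 ± 0.08 for the ZPR1 strain against the wild type. With YJR029W left out, the values were −0.28 ± 0.15, −0.08 ± 0.15 and −0.35 ± 0.15, so YJR029W carried little of the sum.

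**Figure D5:**
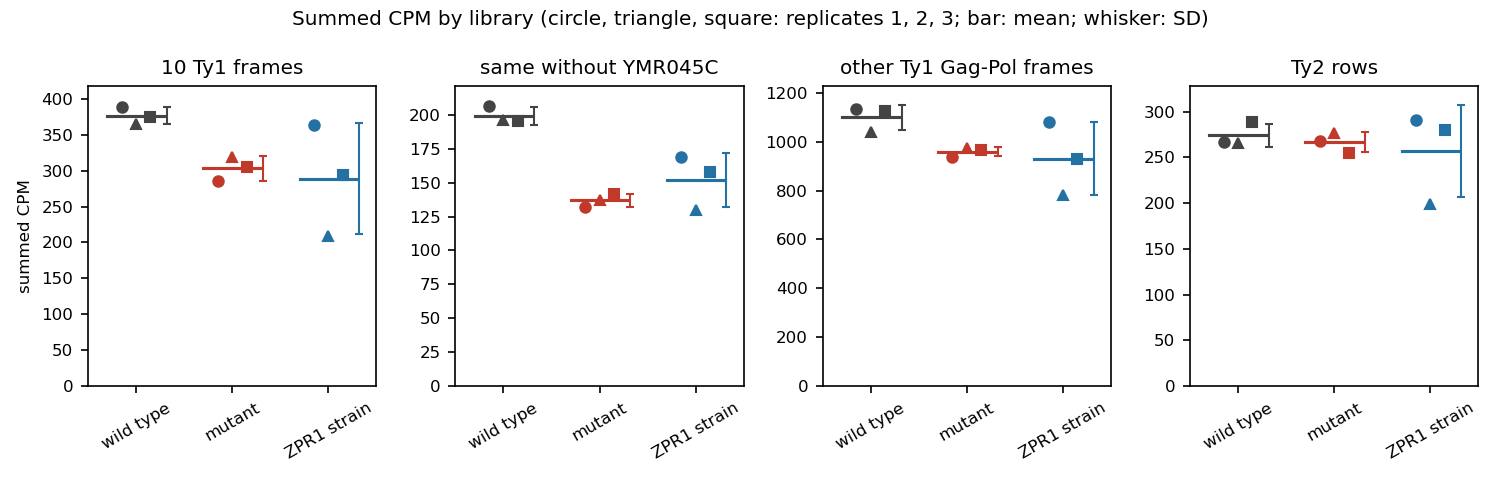
Summed CPM in the 9 libraries for the 10 frames, for the 9 without YMR045C, for the 20 other Ty1 Gag-Pol frames and for the 20 Ty2 rows, with the mean and SD of 3 libraries; each panel starts at 0. The sum of the 10 is 365 to 389 CPM in the wild type and 285 to 320 in the mutant, while the ZPR1 libraries run from 209 to 363.

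The 20 other Ty1 Gag-Pol frames gave median log2 fold changes much like those of the 10. Since Ty1 copies share reads, the 20 are not independent of the 10 or of each other. All 20 were below 0 in the mutant against the wild type, with a median of −0.37. In 9 of them the libraries did not overlap, against 19.2% of all features that were lower without overlap. Of all features 2.16% were called lower and 4.24% higher. By edgeR 2 of the 20 fell, YDR261C-D by −0.73 ± 0.10 on the log2 scale (adjusted p = 0.00110) and YGR027W-B by −0.49 ± 0.10 (adjusted p = 0.0214), 0 rose, and DESeq2 called 4 lower and 0 higher. YGR027W-B is the closest relative of YJR029W. In the ZPR1 strain against the wild type all 20 were below 0 again, with a median of −0.34, beside 47.9% of all features. The libraries did not overlap in 7, all lower, against 8.58% of all features lower. There 0 were called in either direction by edgeR, beside 0.184% of all features. At an unadjusted p under 0.05, 9 were lower and 0 higher, and DESeq2 called 1 lower. In the ZPR1 strain against the mutant 12 of the 20 were below 0, with a median of −0.04, beside 49.2% of all features. By edgeR or DESeq2 0 were called, beside 5.38% of all features by edgeR, and 1 was higher at an unadjusted p under 0.05. Their sum was 1100 ± 51.4, 959 ± 18.6 and 931 ± 149 CPM, and in the second ZPR1 library it was 783 CPM, lower than in the other 8 libraries. In the mutant the sum was at 87.1% of the wild type, with a log2 fold change of −0.20 ± 0.10. The sum of the 10 was at 80.6%, with −0.31 ± 0.15.

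The most counted of the 20, YNL054W-B, had 368 ± 18.1, 333 ± 7.73 and 312 ± 52.5 CPM, and YBL005W-B had 220 ± 5.11, 210 ± 7.84 and 199 ± 30.4. YHR214C-B, at 140 ± 9.84, 138 ± 4.45 and 126 ± 32.4 CPM, hardly differed between the wild type and the mutant. Like YMR045C, these frames were close to 0 in the first comparison. Their log2 fold changes were −0.14 ± 0.10, −0.07 ± 0.09 and −0.02 ± 0.14, and YNL054W-B was lower without overlap. YJR027W, at 113 CPM in the wild type, and YGR027W-B, at 88.6, were at −0.60 and −0.49. Over the 30 frames, Spearman's rho between mean CPM and this log2 fold change was 0.12, with no test. Copies without unique sequence and copies with some gave similar values. The median log2 fold change of the mutant against the wild type was −0.38 in the 11 frames of the 30 with no unique 50-base window and −0.36 in the other 19.

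A split by position was seen in the 10 after their values were known. The elements of YMR045C, YML039W, YNL284C-B, YML045W and YMR050C lie 146 to 681 bases from a tRNA gene in the reference, and those of the other 5 lie 5997 to 45350 bases away. In the first comparison the near 5 had log2 fold changes of −0.34 to −0.07, and the far 5 of −1.21 to −0.38, so the ranges did not meet. The gap between them was smaller than the SE, with YNL284C-B at −0.34 ± 0.14 and YER160C at −0.38 ± 0.15. YML039W, near, and YER138C, far, differ by 1 base, so their reads can hardly be told apart. The other 20 Ty1 Gag-Pol frames, split at the same 1000 bases, did not show this order. Their medians were −0.38 in the 11 near frames and −0.25 in the 9 far frames, and their ranges overlapped.

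Frames of the related element Ty2, which shares terminal repeat sequence with Ty1, had a median log2 fold change of −0.15 in the 9 tested for the mutant against the wild type, 0.10 for the ZPR1 strain against the mutant and −0.08 for the ZPR1 strain against the wild type. The most counted Ty2 frame, YOR192C-B, had 54.6 ± 3.15, 56.3 ± 3.39 and 50.2 ± 12.9 CPM, and YOR343W-B had 50.6 ± 1.15, 46.3 ± 0.544 and 49.7 ± 5.92. YLR410W-B, chosen after its values were seen, was the 1 of these 9 frames that edgeR called in any comparison. Of all features 6.4%, 5.38% and 0.184% were called in the 3 comparisons in turn. DESeq2 called 1 Ty2 frame higher in the first comparison and 1 lower in the second. By edgeR YLR410W-B was at 0.70 ± 0.20 in the mutant against the wild type (adjusted p = 0.0669). It fell by 1.00 on the log2 scale in the ZPR1 strain against the mutant (adjusted p = 0.0181). Its levels were 20.8 ± 6.80 CPM in the wild type, 33.8 ± 5.98 in the mutant and 16.9 ± 1.78 in the ZPR1 strain. The Gag frame YLR256W-A, which lies in no Gag-Pol frame, had 37.3 ± 0.491, 26.1 ± 2.76 and 30.1 ± 6.79 CPM, with −0.52 ± 0.14 in the first comparison and an adjusted p of 0.0582.

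Genes known to act on Ty1 were counted over whole lists, which were drawn up with earlier results of these data known. Over all features, edgeR called 6.4%, 5.38% and 0.184% in the 3 comparisons in turn. The part of the listed genes in the Ty1 values was not tested. Of 14 genes for transcription factors of Ty1 and their regulators, 2 rose and 0 fell in the mutant against the wild type, with 5 lower at an unadjusted p under 0.05 and 1 called lower by DESeq2. The 2 were TEA1, for a Ty1 enhancer activator (0.32 ± 0.07, adjusted p = 0.0231), and BAS1, for a Myb-related factor of adenine and histidine synthesis genes (0.24 ± 0.06, 0.0399). Both fell in the ZPR1 strain against the mutant, TEA1 by 0.43 ± 0.07 (0.00505) and BAS1 by 0.33 ± 0.06 (0.0106), with 0 risen by either tool and 2 higher at an unadjusted p under 0.05. TEC1 and STE12, whose products together bind filamentation elements in Ty1, did not pass, at −0.49 ± 0.19 and −0.19 ± 0.08 in the first comparison. In the ZPR1 strain against the wild type 0 of the 14 were called, with 3 at an unadjusted p under 0.05 and 1 called higher by DESeq2.

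Of 20 chromatin and SAGA regulators 1 was called in the first comparison and in the second, and 0 in the third. The shares of all features called were 6.4%, 5.38% and 0.184%. In the third, 2 of the 20 were higher at an unadjusted p under 0.05 and DESeq2 called 0. SPT21, needed for expression of histone genes and of Ty elements, fell by 0.61 ± 0.10 on the log2 scale in the mutant (adjusted p = 0.00417) and rose by 0.44 ± 0.10 in the ZPR1 strain against the mutant (0.0276). Its levels were 66.5, 43.5 and 58.9 CPM in the wild type, the mutant and the ZPR1 strain. The sum of the 10 frames was 376, 303 and 289 CPM. Whether SPT21 had a part in the Ty1 values was not tested. Of 18 host factors that act on Ty1 RNA or cDNA, RAD52, for a recombination protein, rose by 0.21 ± 0.05 in the mutant (0.0436) and was the 1 called, while DESeq2 called 1 higher and 2 lower. In the other comparisons 0 of the 18 were called by either tool, with 4 and 2 at an unadjusted p under 0.05. Of 23 genes for RNA polymerase III and its factors, 0 were called in any comparison by edgeR, with 3, 3 and 2 at an unadjusted p under 0.05 in the 3 comparisons in turn, and DESeq2 called 0, 0 and 1. The largest subunit, RPO31, was at −0.16 ± 0.07 and the subunit RPC11 at 0.25 ± 0.11 in the first comparison.

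A few genes of the mating type lists passed the test. Over all features, 6.4%, 5.38% and 0.184% were called in the 3 comparisons in turn. Of 7 a-specific genes, 2 fell in the mutant, BAR1, for a protease that degrades alpha factor (−0.76 ± 0.14, adjusted p = 0.00883), and MFA1, for a precursor of a-factor (−0.91 ± 0.20, 0.0233), and 0 rose. At an unadjusted p under 0.05, 5 of the 7 were lower and 0 higher, and DESeq2 called 4 lower and 0 higher. In the second comparison edgeR called 0 of the 7, with 2 higher and 0 lower at an unadjusted p under 0.05, and DESeq2 called 1 higher. In the third it called 0, with 4 lower and 0 higher at an unadjusted p under 0.05, and DESeq2 called 1 lower. Of 11 haploid-specific genes, FAR1, for a cell cycle inhibitor of the pheromone response (−0.58 ± 0.05, 5.27e-05), and STE4, for a G protein subunit (−0.20 ± 0.05, 0.0304), fell, and RME1, for a repressor of meiosis (0.37 ± 0.07, 0.00693), rose. Of these, FAR1 rose in the ZPR1 strain against the mutant (0.44 ± 0.05, 0.000428) and RME1 fell (−0.34 ± 0.07, 0.0130). In the ZPR1 strain against the wild type 0 of the 11 were called by either tool, with 3 at an unadjusted p under 0.05. None of the 4 alpha-specific genes was called by edgeR in any comparison; at an unadjusted p under 0.05 there were 2, 2 and 0 in the 3 comparisons in turn, and DESeq2 called 1, 0 and 0. The part of these genes in the Ty1 values was not tested.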

How the data were processed

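Poly(A) RNA of 9 libraries, 3 isolates of each of 3 strains, was sequenced. The deposited table holds raw counts per feature, without normalisation by the authors. The submitters' processing notes name the genome build R64, STAR 2.7.0, FastQC 0.11.5 and DESeq2 1.34.0. Which counter was used, with which strand setting and rule for reads that map to several places, is not stated. The libraries held 14380639 to 20140071 counts. Of 7127 features, 393 were at 0 in all libraries, and filterByExpr (minimum count 10) kept 5970.

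The counts were tested with edgeR 4.0.16 in R 4.3.3 (TMM factors, glmQLFit and glmQLFTest) in 1 fit of all libraries by group, with 6 residual degrees of freedom. P-values were adjusted over all features by the Benjamini-Hochberg method, and a feature was called at an adjusted p under 0.05. CPM use TMM-scaled library sizes, and log2 CPM a prior count of 2. The standard error of a log2 fold change comes from its F statistic, and a sum of rows was fitted as a row in place of its parts. The fit estimates the spread of a feature from all 3 groups together. Whether isolates were grown separately on different days is not stated, so p-values measure the spread between these libraries. Replicates differed beyond sampling noise (a chi-square of 2.89 to 64.0 for each degree of freedom), and none was counted as a copy of another.

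The 10 frames and all gene lists were chosen with earlier results of these data known. Named are the 10 frames, AIM29, ZPR1, the most counted frames of other Ty classes, the list members with the lowest p, and the 5 genes whose log2 CPM correlates best with that of the summed frames. The lists are Ty1 transcription factors, chromatin and SAGA regulators, host factors of RNA and cDNA, RNA polymerase III genes, and a-specific, alpha-specific and haploid-specific genes. TEC1 and STE12 were named outside this rule, after their values were seen. Sequences, distances and windows of 50, 100 and 150 bases were computed in Python 3.11 from the RefSeq genome of build R64. The fit was tested on simulated data. The fit was repeated with DESeq2 1.42.0, limma-voom (limma 3.58.1), median-ratio factors, no composition factors, other count filters, 2 groups alone, a block for the replicate number, each library left out, and other sums of rows.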

Additional observations from a re-analysis of the deposited data

How the results depend on the processing

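The direction of all 10 frames in the mutant against the wild type, and the number below 0 in each comparison, held with median-ratio factors and with no composition factors, which moved the median of all features by −0.05, 0.03 and −0.02. No called frame reversed under any alternative. With no composition factors the mutant against the wild type gave 316 features lower (129 as reported), and the ZPR1 strain against the mutant gave 196 higher (99), with 1 of the 10 frames higher and 0 lower. DESeq2 gave 232 lower, 195 higher, and 39 higher and 33 lower in the ZPR1 strain against the wild type (7 and 4). With the 2 groups alone the counts were 837 higher (253) and 751 lower with 4 frames lower in the first comparison, 30 higher and 123 lower (222) with 0 frames lower in the second, and 3 higher and 1 lower with 0 frames lower in the third. The sum in the first comparison was −0.23 over all Ty1 Gag-Pol and Gag rows and −0.54 without YMR045C (−0.31). The cause of these differences was not tested. The 10 frames were chosen with these data known, so the numbers of them called are a description and nothing is read from them.

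Same-numbered libraries correlated by −0.107 to 0.0745 in their deviations from the group means, so the replicate numbers do not pair the samples. With the replicate number as a block, 0 frames were lower in the second comparison and 1 in the third, since YMR050C was then at adjusted p = 0.0601 and 0.0635.

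Leaving out 1 library gave 122 to 577 features higher, 40 to 520 lower and −0.35 to −0.27 for the sum in the first comparison. In the second it gave 31 to 312 higher, 114 to 408 lower, 0 to 1 frames higher, 0 to 1 lower and −0.27 to 0.13 for the sum. In the third it gave 3 to 33 higher, 1 to 40 lower, 0 to 4 frames lower and −0.58 to −0.19 for the sum. Where a group is left with 2 libraries, their spread is taken from all groups. Depth limits YML039W, YML045W and YER138C, with 7 to 46 counts per library.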

Other observations

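Frames of Ty3 and Ty4, elements unrelated in sequence to Ty1 at this level of identity, are given as values. The Ty3 frame YIL082W-A stood at 50.9 ± 6.39 CPM in wild-type cells, 47.2 ± 2.95 in the mutant and 53.7 ± 4.92 in the ZPR1 strain, and YGR109W-B had 21.6 ± 0.543, 19.4 ± 1.24 and 21.8 ± 0.244. The Ty4 frame YJL113W had 12.1 ± 1.93, 13.2 ± 1.45 and 12.8 ± 0.917 CPM, and YPL060C-A had 2.40 ± 0.287, 1.92 ± 0.130 and 1.84 ± 0.292. None of these 4 frames was called by edgeR or DESeq2 in any comparison, and 0 were at an unadjusted p under 0.05.

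Over the 9 libraries, the summed log2 CPM of the 10 Ty1 frames was most like that of SYH1 (Pearson r = 0.925), MTO1 (0.917), PNT1 (0.903), MAS1 (0.893) and SCY1 (0.889) among 5032 genes whose mean level was 10 CPM or more. The libraries share group and depth, and the values carry no test. SYH1 varied little, at 319 ± 1.08, 312 ± 3.49 and 310 ± 11.4 CPM, while MTO1 had 55.6 ± 3.69, 48.8 ± 1.52 and 45.6 ± 6.76. Both were lowest in the second ZPR1 library, at 298 and 37.8 CPM. Each Ty1 frame was also set against the sum of the other 9, and Pearson's r over the 9 libraries ran from 0.914 in YER160C and 0.892 in YBR012W-B to −0.106 in YML039W, which has the fewest counts.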
